A study of Mus musculus with 3 samples.

Results

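The established *Nr0b1* knockout ES cells were compared with the same ES cells 4 days after the deletion was induced, to find which genes changed only after the first response, which went on changing and which went back. The comparison took 6 of the 9 arrays of the series, the 3 arrays of *Nr0b1* KO/Y cells kept for several passages and the 3 arrays of *Nr0b1* fl-/Y cells given 4-hydroxy tamoxifen (Tx) for 4 days (fl-/Y+Tx). The 3 arrays of untreated fl-/Y cells (fl-/Y-Tx) were used to read the first step. All 22440 genes with a probe above background on the 3 arrays of some group were tested.

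*Nr0b1*, also called *Dax1*, is an X-linked gene for an orphan nuclear receptor without a conventional DNA-binding domain that acts mostly as a corepressor, and ES cells express it at a high level. ES cells stand for the epiblast of the blastocyst, and small numbers of them pass through a state in which genes of the 2-cell embryo, such as the *Zscan4* and *Tcstv* families, are on. The other early lineages are the trophectoderm, which gives the placenta, and the primitive endoderm, which gives the visceral and parietal endoderm of the yolk sacs and is driven by the *Gata*, *Sox* and *Foxa* factors.

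All cells came from male ES cells of the EB5 line, in which exon 2 of *Nr0b1* was flanked by loxP sites (fl-) and transgenes for MerCreMer, a Cre recombinase that Tx switches on, and for *Egfp* were expressed constitutively from the CAG promoter. The KO/Y cells carry these transgenes too, and they were grown from single clones after a Tx treatment, so passage, cloning and the age of the deletion come together and cannot be told apart. It is not stated which line was put on the arrays, nor whether feeder fibroblasts were present in these cultures. The study calls the arrays biological triplicates, and the labels do not say that they came from separate cultures, so the p-values measure only the spread between these arrays.

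Each array was a 1-colour Agilent mouse array, and between 51.7% and 58.4% of its probes were well above background. A level is the log2 of a gene's processed signal minus the 75th percentile of that array, so that 0 is the brightness below which 75% of the spots lie. A gene was called when it differed by over 2-fold with an adjusted p under 0.05 (limma with Benjamini-Hochberg adjustment over all genes). The arrays lay on 2 slides. The first held the 3 fl-/Y-Tx arrays and 1 fl-/Y+Tx array, and the second held the other 2 fl-/Y+Tx arrays and the 3 KO/Y arrays. Arrays of a group correlated at 0.9943 to 0.9969 over the genes tested, and KO/Y with fl-/Y+Tx arrays at 0.9848 to 0.9875.

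*Nr0b1* was read first, on a probe at chrX:83441169-83441228 of the mm9 build. Its level was 4.02, 4.18 and 4.10 on the fl-/Y-Tx arrays, -2.58, -2.66 and -2.42 on the fl-/Y+Tx arrays, and -6.37, -6.20 and -6.22 on the KO/Y arrays. The 3 groups did not overlap, and the order followed the labels. Whether this probe lies inside the deleted exon 2 was not determined here, so it checks the labels only as far as the RNA as a whole is lost. The probe was still well above background on all 3 arrays at 4 days and on none of the KO/Y arrays, so the second fall was at least 3.20-fold (adjusted p = 7.6e-07). Whether the signal at 4 days was RNA left in deleted cells or cells without deletion cannot be told apart in bulk RNA, and likewise fewer cells of a type and less RNA per cell cannot be told apart for any gene below.

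Between 4 days and the established knockout, 532 genes were higher in KO/Y cells and 235 were lower, which is 2.37% and 1.05% of the genes tested. The first step, fl-/Y+Tx over fl-/Y-Tx, had 392 genes higher (1.75%) and 170 lower (0.758%). Over both steps, KO/Y against fl-/Y-Tx, 1059 genes were higher (4.72%) and 637 lower (2.84%). The counts depended on how dim signals were handled. With a normexp background correction that damps dim signals, 195 genes were called higher and 61 lower, and when every array had to detect the probe, 229 and 149. When the fold of 2 itself was tested, 144 genes were higher and 43 lower.

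The called genes were sorted by what they had done in the first step. A gene appeared late when its first step lay within 1.5-fold either way by the 95% interval, which held for 151 genes, 92 higher and 59 lower in KO/Y cells. A gene progressed when both steps were called in the same direction, which held for 167 genes, 144 upward and 23 downward. A gene recovered when the second step was called against the first, which held for 27 genes, 21 of them after a fall and 6 after a rise. Of the genes called in the second step, 275 higher and 147 lower ones had a first step that was neither within 1.5-fold nor called, and among them were 7 of the 8 primitive endoderm genes described below. Another 78 genes held their first change, with the second step within 1.5-fold. The steps share the fl-/Y+Tx arrays, which favours recovery and works against progress. With each step read within its own slide, so that no array was shared, 123 genes appeared late, 133 progressed and 21 recovered, and 91, 114 and 20 of these were the genes named so above. The first step then rests on a single fl-/Y+Tx array, which was assumed to vary like the others.

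**Figure D1:**
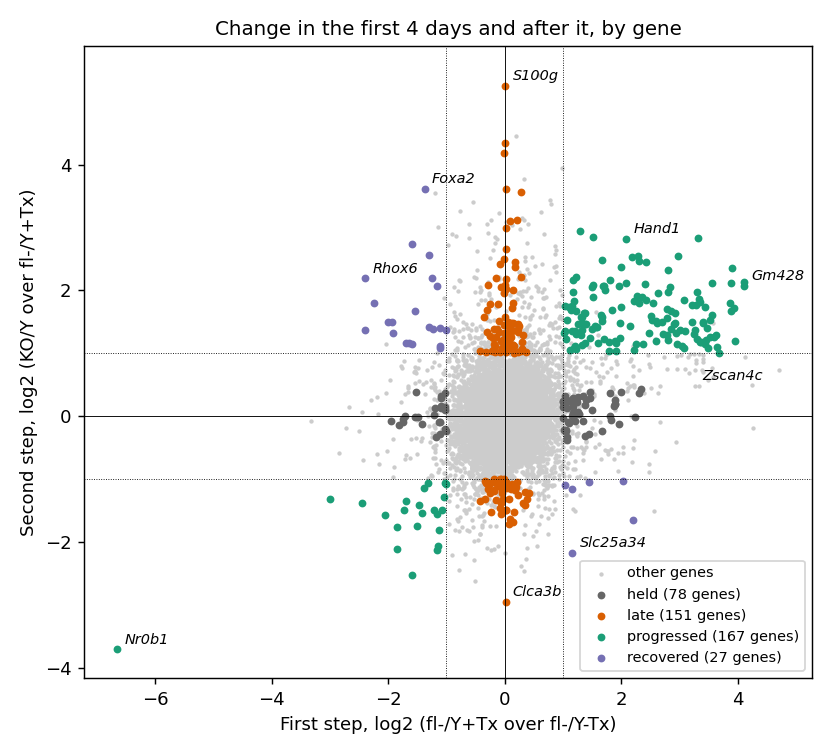
Log2 difference of each of the 22440 genes in the first step (x axis, fl-/Y+Tx over fl-/Y-Tx) and in the second step (y axis, KO/Y over fl-/Y+Tx), with dotted lines at 2-fold. The 151 late genes lie close to the vertical axis, the 167 progressing genes in the upper right and lower left, and the 27 recovering genes in the other corners, while *Zscan4c* lies far to the right and near 0 on the y axis.

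The largest late rises included genes of epithelial transport and of secreted proteins. *S100g*, a calcium-binding protein of absorbing epithelia, lay at -6.14, -6.40 and -6.32 in fl-/Y-Tx, -6.39, -5.84 and -6.60 in fl-/Y+Tx, and -1.19, -1.06 and -0.82 in KO/Y cells. It was well above background on the KO/Y arrays only, at least 8.53-fold higher than at 4 days (adjusted p = 2.04e-06). *Aqp8*, a water channel, was measured on every array: -2.66, -2.38 and -2.88 in fl-/Y-Tx, -2.72, -2.48 and -2.69 in fl-/Y+Tx, and 1.79, 1.46 and 1.87 in KO/Y cells. This is 20.2-fold between the last groups (log2 4.34, SE 0.15, adjusted p = 2.04e-06), with no overlap. *Mest*, a paternally expressed imprinted gene, stood at -1.80, -1.59 and -1.72, then -1.59, -1.42 and -1.25, and then 2.15, 2.07 and 2.21, which is 11.8-fold (log2 3.56, SE 0.10, adjusted p = 1.49e-06). Its 3 probes gave log2 differences from 2.83 to 3.56.

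*Mbl2*, a secreted lectin of innate immunity, and *Ugt2b34*, a glucuronosyltransferase, were well above background on the KO/Y arrays only, at least 3.67-fold and at least 2.49-fold higher. *Apom*, an apolipoprotein, rose 5.48-fold, from between -2.70 and -2.23 in fl-/Y+Tx to between -0.27 and 0.15 in KO/Y cells. *Pth1r*, the receptor for parathyroid hormone and a gene of parietal endoderm, rose 5.36-fold (adjusted p = 2.21e-05). *Mlana*, a melanosome protein, rose 4.63-fold, and the X-linked *Efhc2*, a protein of cilia, 8.70-fold. *Krt18*, an intermediate filament of simple epithelia, was 1.31, 1.44 and 1.35 in fl-/Y-Tx, 1.18, 1.01 and 1.06 in fl-/Y+Tx and 3.17, 3.08 and 3.26 in KO/Y cells, a 4.25-fold rise (adjusted p = 2.04e-06). *Krt8*, its partner, rose 4.04-fold in the second step after a first difference of -0.40 on the log2 scale. The late rises had a median log2 difference of 1.32, and for 85 of the 92 genes the test that the steps differ was passed (adjusted p under 0.05), which the way they were chosen made likely. For 10 of the 92, *S100g*, *Mbl2* and *Ugt2b34* among them, the probe was well above background on no array of the first step, so a change at that time below the background level could not have been seen. With a tighter limit for an unchanged first step 40 genes of either direction appeared late, with a limit of 2-fold 399, with the slide as a block 99, and with a variance floored at that of neighbouring genes 81.

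**Figure D2:**
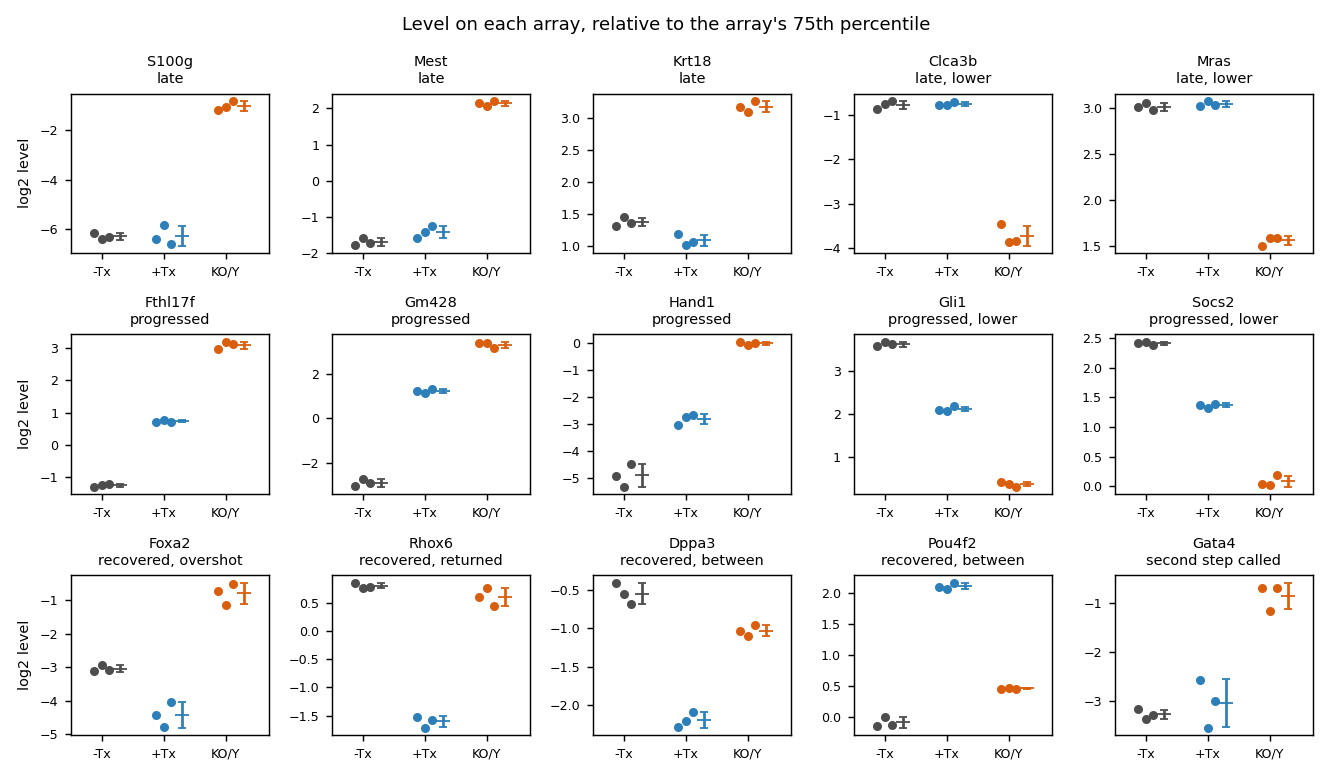
Level of 15 genes on each of the 9 arrays (points) with the mean and SD of each group (n = 3) beside them. The y axis is the log2 level relative to the array's 75th percentile and differs between panels. *S100g*, *Mest* and *Krt18* are called in the second step and not in the first, with first steps within 1.5-fold. *Fthl17f*, *Gm428*, *Hand1*, *Gli1* and *Socs2* change in both steps, and *Foxa2*, *Rhox6*, *Dppa3* and *Pou4f2* turn back.

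Several factors of the primitive endoderm rose in the second step. Of 16 primitive endoderm factors and receptors tested, of 18 in the list, 8 rose in the second step and none fell, against 1 higher and 1 lower in the first. Over all genes tested 2.37% rose and 1.05% fell in the second step, and 1.75% and 0.758% in the first. The counts of the lists below are to be read beside these shares. Of the 8, *Sox7*, *Sox17* and *Foxq1* passed the filter on dim probes through the KO/Y arrays alone, which favours a rise. Of the other 13 members 5 rose, and their median log2 difference in the second step was 0.53, beside 0.01 over all genes. The strict limit on the first step put none of them among the late genes. *Gata4* was at -3.17, -3.35 and -3.28 in fl-/Y-Tx, -2.57, -3.53 and -3.00 in fl-/Y+Tx, and -0.70, -1.16 and -0.71 in KO/Y cells, a 4.53-fold rise in the second step (log2 2.18, SE 0.23, adjusted p = 2.76e-04). *Gata6* went from between -2.44 and -2.28 to between -0.73 and -0.28, a 3.69-fold rise. *Sox17* was well above background on the KO/Y arrays only, where it reached -1.53, -2.12 and -1.52, at least 5.25-fold above 4 days (adjusted p = 0.00021). *Sox7*, above background on 1 of 3 arrays at 4 days, rose 4.07-fold, and this call was lost with normexp and with the floored variance. *Hnf4a*, a nuclear receptor of endoderm and liver, was above background in fl-/Y-Tx (-3.13, -3.62 and -3.42), not at 4 days (-4.44, -3.62 and -4.61), and again in KO/Y cells (-1.23, -1.55 and -1.29), at least 6.71-fold over 4 days. *Cited1*, a transcriptional coactivator, rose 5.78-fold. *Pdgfra*, the receptor that marks primitive endoderm, differed by log2 0.62 (adjusted p = 0.00251), below the 2-fold limit. The test of the difference between the steps passed for *Gata4* (adjusted p = 0.0164), *Gata6* (0.0452), *Sox17* (0.0069) and *Hnf4a* (0.00127), and missed the threshold for *Sox7* (0.268).

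Part of the genes of uptake and secretion in the visceral endoderm rose as well. Of 26 tested, in a list that was chosen with earlier results of these data known and holds *S100g*, *Aqp8* and *Apom*, 10 rose and 1 fell in the second step, against 1 higher and none lower in the first step. Another 10 members of the list were too dim to be tested, and *S100g*, *Hkdc1*, *Habp2* and *Cyp26a1* passed the filter on dim probes through the KO/Y arrays alone, so the count leans towards rises. Of the other 22 tested, 6 rose and 1 fell (median log2 difference 0.38). *Hkdc1*, a hexokinase, had the largest difference of the list, from -5.10, -5.79 and -5.77 at 4 days, not above background, to 0.02, -0.34 and -0.05, at least 15.9-fold (adjusted p = 2.04e-06). *Cubn*, the cubilin receptor of the absorbing endoderm, rose 8.72-fold and *Amn*, its membrane partner amnionless, 3.74-fold. *Cyp26a1*, which degrades retinoic acid, was at least 4.67-fold higher. *Apoe*, an apolipoprotein that ES cells express too, fell 2.27-fold (log2 -1.18, SE 0.08). *Lrp2*, the megalin receptor that works with cubilin, had risen in the first step (log2 1.40) and differed by -0.41 in the second. *Afp*, a defining product of the visceral endoderm, had no array well above background. Of 22 genes of parietal endoderm and basement membrane, 6 rose and none fell (median 0.50, first step 0.33), and 2 of the 6, *Dkk1* and *Stra6*, passed the filter through KO/Y alone. *Lama1*, a laminin chain, went from 2.44, 2.56 and 2.83 to 5.27, 4.57 and 4.99, a 5.04-fold rise (adjusted p = 4.22e-05). *Col4a1* rose 2.77-fold and *Col4a2* 2.07-fold, both chains of type IV collagen. Within the slide that held both groups, with 2 fl-/Y+Tx arrays, these 3 lists had 8, 10 and 6 genes higher.

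Trophectoderm and simple-epithelium genes were called in both directions in the first step and in 1 in the second. Of 24 tested, 3 were higher and 5 lower in the first step, and 6 higher and none lower in the second. Over all genes tested 1.75% were higher and 0.758% lower in the first step, and 2.37% and 1.05% in the second. Of the 6, *Krt7* passed the filter on dim probes through KO/Y alone, and 4 members of the list were too dim to be tested. Of the 22 that did not pass through KO/Y alone, 5 rose in the second step. *Hand1*, a factor of trophoblast and extraembryonic mesoderm, rose in both steps, from -4.92, -5.33 and -4.48 to -3.04, -2.75 and -2.67 and then 0.05, -0.06 and 0.02, which is 7.08-fold in the second (log2 2.82, SE 0.19). *Krt7*, called lower in the first step and higher in the second, was above background on no array of fl-/Y-Tx or fl-/Y+Tx, so its first step lies between levels that were both below background. *Tfap2c*, a factor of trophectoderm and germ cells, fell in the first step (log2 -1.97) and stood 0.58 higher after the second (adjusted p = 3.94e-04), below the 2-fold limit. *Cdx2*, the defining regulator of trophectoderm, differed by 0.64 (adjusted p = 0.206), and *Elf5* and *Tpbpa* were well above background on no array. *Rhox6* is counted in this list under its older name *Psx1*.

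**Figure D3:**
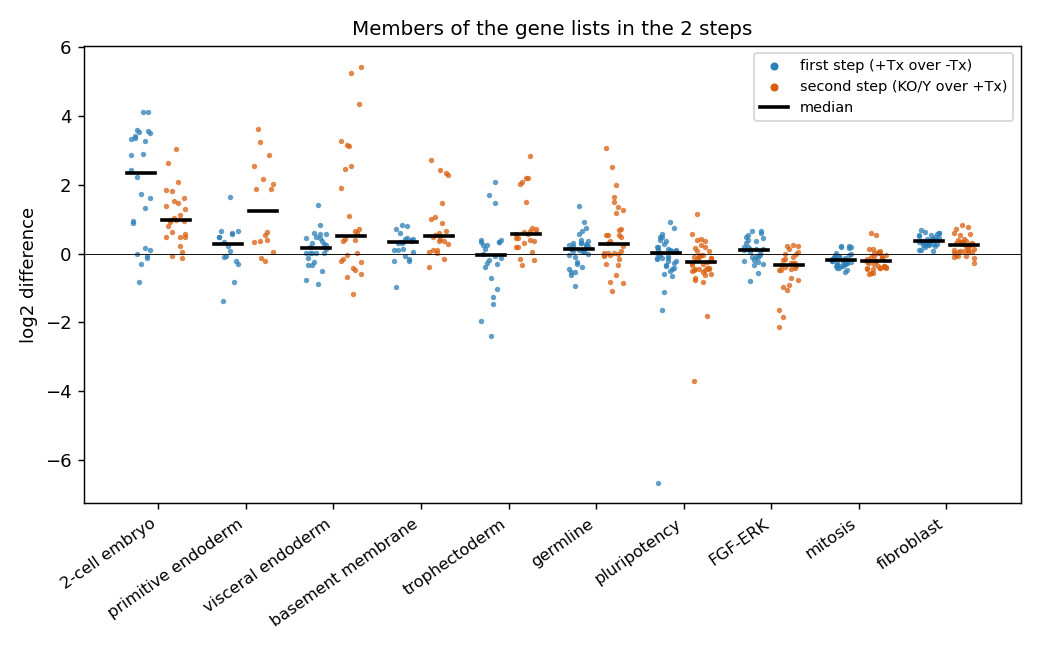
Log2 difference of the tested members of 10 gene lists in the first step (blue) and in the second step (orange), with black bars for the medians. The 2-cell list has its larger median in the first step (2.33 against 0.98), and the FGF-ERK list changes sign (0.11 and -0.35). The second steps of the primitive endoderm list spread from -0.23 to 3.61, and 3 of its high points, *Sox7*, *Sox17* and *Foxq1*, passed the filter on dim probes through KO/Y alone.

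The genes that fell late included genes of signalling, chromatin and the cell cycle. *Clca3b*, a secreted protein of the chloride channel regulator family, was -0.88, -0.77 and -0.70 in fl-/Y-Tx, -0.79, -0.79 and -0.72 in fl-/Y+Tx and -3.45, -3.85 and -3.84 in KO/Y cells, a 7.71-fold fall (log2 -2.95, SE 0.11, adjusted p = 2.23e-06). *Capn3*, a calcium-dependent protease, fell 3.22-fold, *Shisa2*, an inhibitor of FGF and Wnt receptors, 3.1-fold, and *Bcl11a*, a zinc-finger repressor, 2.86-fold. *Mras*, a GTPase of the Ras family, was 3.02, 3.06 and 2.98, then 3.03, 3.08 and 3.04, then 1.5, 1.59 and 1.59, a 2.80-fold fall, but its 3 probes ranged from -1.49 to -0.47 and their mean was not called (-0.98). *Tet1*, which oxidises methylated cytosine, fell from 4.10, 4.14 and 4.15 to 3.08, 3.06 and 3.25, at the 2-fold limit (log2 -1.0, SE 0.08). *Ccne1*, the cyclin of S-phase entry, fell from 5.56, 5.58 and 5.50 to 4.46, 4.52 and 4.62 (log2 -1.02), likewise at the limit. The *Tet1* call was lost without fl-/Y+Tx array 2 or 3 or KO/Y array 1 or 2 (log2 from -1.0 to -0.97) and the *Ccne1* call without fl-/Y+Tx array 2 (log2 -1.0) or without KO/Y array 1 (log2 -0.98). The 59 late falls had a median log2 difference of -1.16, and 55 passed the test that the steps differ, which their choice likewise made likely.

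Part of the genes that respond to FGF and ERK signalling fell in the second step. None of the 28 tested was called in the first step (median log2 difference 0.11). In the second, 4 fell and none rose (median -0.35), and 17 were lower and none higher by adjusted p alone, by which 14.1% of all genes tested were lower and 12.1% higher. *Egr1*, an immediate early gene, was 2.74, 2.78 and 2.62 in fl-/Y-Tx, 3.24, 3.22 and 3.32 in fl-/Y+Tx and 1.49, 1.38 and 1.42 in KO/Y cells, a fall of 3.56-fold (adjusted p = 2.05e-06) that took it below the starting level. *Bcl6b* fell 4.35-fold and *Fgf15* 2.07-fold. The *Fgf15* call was lost without fl-/Y+Tx array 1, as within the slide of both groups and with the slide as a block (log2 -0.90), without KO/Y array 3 (log2 -0.81), with normexp (log2 -0.54) and with the floored variance. *Spry4*, a feedback inhibitor of the pathway, went from 1.97, 1.83 and 2.07 to 1.07, 0.88 and 0.97 (log2 -0.98, adjusted p = 8.65e-05), just short of 2-fold, and *Fgf4* differed by -0.47.

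Most genes of the pluripotency network moved less than 2-fold. Of 39 tested, 1 rose and 2 fell in the second step, the falls being *Nr0b1* itself and *Gbx2*, a target of LIF signalling, which went from -0.30, -0.43 and -0.30 to -2.08, -2.34 and -2.05 (3.51-fold, adjusted p = 8.08e-06). By adjusted p alone 19 were lower and 4 higher, beside 14.1% and 12.1% of all genes, and the median log2 difference was -0.24 (first step 0.02). *Sox2* differed by -0.30 (adjusted p = 0.0207), *Esrrb* by -0.41 (0.001), *Nr5a2* by -0.41 (0.00185), *Lin28a* by -0.83 (3.25e-05) and *Utf1* by -0.61 (1.81e-04). *Pou5f1* was 3.06, 3.14 and 3.71 in fl-/Y+Tx and 2.39, 2.64 and 3.32 in KO/Y cells, overlapping (adjusted p = 0.157), and *Nanog* overlapped too (adjusted p = 0.394). *Klf4* and *Tbx3*, which differed by 0.58 and 0.75 in the first step, differed by 0.08 each in the second (95% intervals -0.06 to 0.22 and -0.08 to 0.24). The summed linear level of 7 ES cell markers was 192 to 193 in fl-/Y-Tx, 167 to 176 in fl-/Y+Tx and 135 to 153 in KO/Y cells. Linear sums give most weight to the brightest genes, here *Esrrb* and *Zfp42*, and *Esrrb* was lower after each step. *Klf4*, also among the 7, was higher after the first step, and none of the 7 was called in the second. The sum therefore does not show a fall of the whole set.

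Genes of the 2-cell embryo rose in both steps, by different amounts in the different families. Of 26 tested, 17 rose in the first step and 11 in the second, none fell in either, and 8 were called in both (median log2 difference 2.33 and 0.98). Over all genes tested 1.75% rose in the first step and 2.37% in the second. Of the 11, *Tdpoz3* passed the filter on dim probes through KO/Y alone, and 3 members of the list were too dim to be tested. Of the 24 that did not pass through KO/Y alone, 10 rose in the second step (median 0.96). The 4 *Zscan4* genes, which act in telomere maintenance, had first steps of 3.27 to 3.58 and second steps of 0.49 to 0.63, none of them called in the second. *Zscan4c* was 1.20, 1.28 and 1.05 in fl-/Y-Tx, 4.40, 4.37 and 4.56 in fl-/Y+Tx and 5.01, 4.97 and 4.82 in KO/Y cells, a second step of 1.40-fold (log2 0.49, SE 0.09, adjusted p = 0.00445) that was smaller than the first (adjusted p of the difference 3.49e-05). The *Tcstv* genes were called in both steps. *Tcstv1* was -2.56, -2.40 and -2.23, then 1.15, 1.06 and 1.19, then 2.67, 2.79 and 2.51, 2.88-fold in the second step, and *Tcstv3* rose 3.61-fold. *Gm428* rose 4.21-fold in the second step after a first log2 difference of 4.12. The 4 *Usp17l* deubiquitinases had second steps from 0.81 to 0.99, short of 2-fold. *Pramel6* and *Pramel7*, of the PRAME family, were called in the second step and not in the first. *Pramel7* went from -2.46, -2.65 and -2.25 to 0.11, 0.32 and 0.12 (6.22-fold, adjusted p = 4.32e-06) after a first difference of 0.88 (adjusted p = 0.00113), short of 2-fold. *Zfp352* and *Dux* were called in neither step, although the probes of *Zfp352* ranged from 0.05 to 1.84 in the second. Probes of these families can take up RNA of near-identical copies, so the families are surer than the single members.

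The other genes that progressed upward included genes of germ cells and of large gene families. *Fthl17d*, *Fthl17e* and *Fthl17f*, X-linked genes of the ferritin heavy chain family, moved alike. They are near-identical copies, so their probes may take up RNA of one another. *Fthl17f* was -1.31, -1.25 and -1.24 in fl-/Y-Tx, 0.71, 0.76 and 0.72 in fl-/Y+Tx and 2.98, 3.19 and 3.13 in KO/Y cells, 5.17-fold in the second step (log2 2.37, SE 0.07, adjusted p = 1.49e-06), and *Fthl17e* and *Fthl17d* rose 5.81-fold and 5.54-fold. *Tuba3a*, a testis tubulin, was 2.36, 2.35 and 2.35 at 4 days and 3.90, 4.08 and 4.03 in KO/Y cells (3.13-fold). *Cidea*, a lipid droplet protein, rose 4.03-fold, *Trim43b* 3.91-fold, *Pramel14* 4.19-fold, *Clec10a*, a lectin of macrophages, 5.48-fold, and *Wfdc15a* 7.66-fold. *Atf3*, a stress-response factor, rose 2.23-fold. Over the 144 genes the median log2 difference was 2.30 in the first step, 1.52 in the second and 4.11 over both, and 68 of them were well above background on no fl-/Y-Tx array. With normexp 61 genes of either direction progressed, with a floor on low signals 104, and with probes detected on every array 66.

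The 23 genes that progressed downward included *Nr0b1*, targets of signalling and surface proteins. *Gli1*, the target of Hedgehog signalling, was 3.58, 3.69 and 3.63 in fl-/Y-Tx, 2.11, 2.08 and 2.19 in fl-/Y+Tx and 0.42, 0.39 and 0.32 in KO/Y cells, 3.37-fold in the second step (log2 -1.75, SE 0.06, adjusted p = 2.04e-06). *Socs2*, a feedback inhibitor of cytokine receptors, fell from 2.41, 2.44 and 2.39 to 1.38, 1.33 and 1.39 and then 0.04, 0.03 and 0.20 (2.43-fold). *Enpp3*, an ectonucleotidase, fell 3.51-fold and *Cd2*, a surface adhesion protein, 2.59-fold, although another probe of *Cd2* differed by -0.08 and their mean was not called (-0.73). For *Gli1*, *Socs2* and *Enpp3* the second step did not differ from the first past the threshold (adjusted p = 0.199, 0.234 and 0.0525). *Scn3a* was above background in fl-/Y-Tx only, so its second step lies between groups that are both below it, and the calls of *Car3* and *Scn3a* were lost when single arrays were left out.

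The genes that recovered after a fall included homeobox and epithelial genes. *Rhox6*, a homeobox gene of the placenta and germ line, was 0.85, 0.77 and 0.78 in fl-/Y-Tx, -1.52, -1.71 and -1.57 in fl-/Y+Tx and 0.59, 0.76 and 0.44 in KO/Y cells. Its second step of 4.59-fold (adjusted p = 3.33e-06) brought it back to within 1.5-fold of the untreated cells. *Rhox9* was 1.51, 1.40 and 1.36, then -0.34, -0.72 and -0.68, then 0.92, 1.13 and 0.73, and ended 0.5 below its start on the log2 scale. *Rhox5* of the same cluster fell in the second step, from 6.18, 6.13 and 6.16 to 4.28, 4.42 and 4.38 (3.49-fold). *Dppa3*, a maternal factor that protects DNA methylation, was -0.41, -0.56 and -0.69, then -2.29, -2.21 and -2.09, then -1.04, -1.10 and -0.96, a 2.23-fold rise that left it between the 2 earlier levels and was not called with normexp (log2 0.72). *Ppp1r14d*, a phosphatase inhibitor, and *Car2*, a carbonic anhydrase, returned to within 1.5-fold.

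*Foxa2*, the pioneer factor of endoderm, overshot. It was -3.10, -2.92 and -3.08 in fl-/Y-Tx, -4.43, -4.79 and -4.02 in fl-/Y+Tx, where 1 of 3 arrays was above background, and -0.72, -1.15 and -0.53 in KO/Y cells, 12.2-fold over 4 days (log2 3.61, SE 0.21, adjusted p = 1.3e-05). *Mall*, *S100a14*, *Krt7* and *Krt23*, epithelial genes, and the sodium channel subunit *Scn2b* were below background at 4 days, and the lower bounds of their rises were 1.63-fold for *Mall*, 1.80-fold for *S100a14*, 1.73-fold for *Krt7*, 2.64-fold for *Krt23* and 2.77-fold for *Scn2b*. *Mall* and *Krt7* were above background on no fl-/Y-Tx array either, and *S100a14* on 1 of 3, so no fall of *Mall* or *Krt7* was measured above background. All 5 calls were lost with normexp and with the floor on low signals. *Slc51a*, a bile acid transporter, was read by probes listed under its new and its old name (*Osta*), which rose 3.17-fold and 2.64-fold. Both calls were lost with normexp, and that under *Slc51a* also with the floor and with the floored variance. Of the 21 genes, counted with both names, 5 returned, 3 overshot, 1 was still called below fl-/Y-Tx and 12 lay between.

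After a rise, 6 genes went back down. *Pou4f2*, a factor of retinal ganglion cells, was -0.14, 0.01 and -0.13 in fl-/Y-Tx, 2.10, 2.08 and 2.17 in fl-/Y+Tx and 0.46, 0.47 and 0.46 in KO/Y cells, a 3.14-fold fall (adjusted p = 2.24e-06). *Slc25a34*, a mitochondrial carrier, went from -1.35, -1.28 and -1.36 to -0.21, -0.07 and -0.23 and then -2.51, -2.18 and -2.33, below its start. *Mmp10*, a metalloprotease, returned, and its call was lost without KO/Y array 3 (log2 -0.98). All 27 genes passed the test that the steps differed, which their choice made likely. With normexp 5 genes of either direction recovered, with no filter on dim probes 48, with a floor on low signals 16, with probes detected on every array 14, with the floored variance 17, and without fl-/Y+Tx array 1 45.

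Some genes stayed within 1.5-fold of their level at 4 days. Of the 78, 54 had risen and 24 had fallen in the first step. *Tfcp2l1*, a factor of naive pluripotency, was 3.64, 3.71 and 3.65 in fl-/Y-Tx, 2.55, 2.54 and 2.60 in fl-/Y+Tx and 2.52, 2.50 and 2.40 in KO/Y cells. *Wnt6*, a Wnt ligand, had risen by 1.47 and was a further 0.39 higher in the second step, within that limit (limma adjusted p = 0.00238). These were named after their values were seen.

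Genes of the X chromosome were called higher in the second step more often than those of any autosome. Of 880 X-linked genes tested, 55 were higher (6.25%), beside 2.20% of the genes on all other chromosomes, and single autosomes ranged from 0.959% on chromosome 17 to 2.73% on chromosome 19. In the first step 1.93% of X-linked genes were higher. The share was 6.48% against 2.19% within the slide that held both groups, 3.18% against 0.758% with normexp, and 2.85% against 1.05% over probes detected on every array. X-linked genes were also called lower, 1.82% of them in the second step and 1.36% in the first. Over all genes tested it was 1.05% and 0.758%, and the highest autosomes had 2.01% (chromosome 19) and 1.22% (chromosome 3). The median log2 difference of all X-linked genes in the second step was 0.01, within the range of the autosomes' medians from -0.03 to 0.04. Genes of 1 chromosome were not tested against the rest, and the 55 include families of near-identical copies, such as *Rhox2*, *Xlr* and *Fthl17*.

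**Figure D4:**
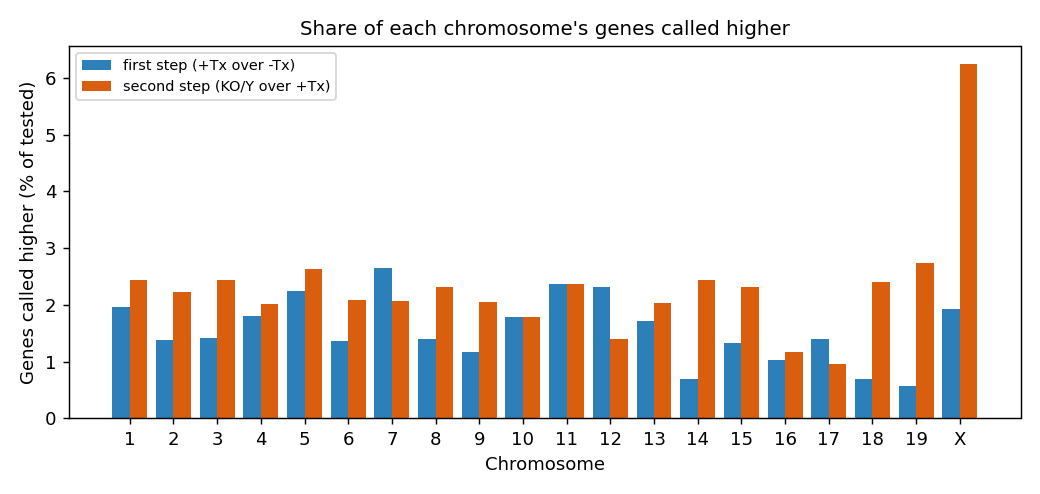
Share of the tested genes of each chromosome but Y (x axis) called higher in the first step (blue) and in the second step (orange), in percent. Chromosome Y had only 12 genes tested, 8.33% of them higher in the first step and 25% in the second. Chromosome X stands at 6.25% in the second step, and no autosome is above 2.73%.

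The X-linked genes that rose included genes known from testis and placenta, and the ones given here, apart from *Xlr4a*, *Nxf3*, *Rhox5*, *Rhox6* and *Rhox9*, were chosen after their values were seen. *Pnma5*, of the paraneoplastic antigen family, was -1.47, -1.47 and -1.64 in fl-/Y-Tx, -1.04, -0.90 and -1.08 in fl-/Y+Tx and 1.41, 1.38 and 1.35 in KO/Y cells, 5.23-fold in the second step (adjusted p = 2.04e-06). *Fmr1nb*, a testis antigen, appeared late, with 0.77, 0.72 and 0.64 at 4 days and 2.12, 2.38 and 2.37 in KO/Y cells (2.99-fold). *Xlr3b* and *Xlr4a*, of a family of lymphoid and germ cell genes, rose 3.87-fold and at least 3.40-fold. *Ctag2l2*, of the cancer-testis antigens, and the RNA export factors *Nxf7* and *Nxf3* were above background in KO/Y cells only, and their differences were at least 7.48-fold for *Ctag2l2*, 4.70-fold for *Nxf7* and 1.61-fold for *Nxf3*. In the *Rhox* cluster, *Rhox2h* and *Rhox2e* appeared late (3.46-fold and 2.71-fold), while *Rhox6* and *Rhox9* recovered and *Rhox5* fell. Of 32 germline and meiosis genes on all chromosomes, 8 rose and 1 fell in the second step, beside 2.37% and 1.05% of all genes. The median log2 difference of the 32 was 0.27 (first step 0.12 with 1 higher). Of the 8, *Dazl*, *Nxf3* and *Xlr4a* passed the filter on dim probes through KO/Y alone, and 15 members of the list were too dim to be tested. *Smc1b*, a meiotic cohesin, rose from -1.65, -1.68 and -0.81 to 0.53, 0.65 and 0.67 (3.99-fold), *Stra8*, the switch to meiosis, rose 2.80-fold and *Hormad1* 2.27-fold, while *Sycp3*, of the same synaptonemal machinery, fell 2.11-fold.

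Promoters of the classes differed in the number of CG dinucleotides, the sites of DNA methylation. The reference table (RefSeq, GRCm38.p6) holds 300 bases around each start of transcription, 250 before and 50 after, and 11367 of the tested genes had 1 or more promoters in it, 14354 in all. Of these, 14.4% had fewer than 5 CG. Among the genes that progressed upward it was 56.9% of 65 promoters, among late risers 32.4% of 68, among late falls 19.4% of 36 and among genes that held a rise 12.9% of 31. The 65 promoters belong to 60 of the 144 upward progressing genes, and the 68 to 50 of the 92 late risers. Near-identical copies, such as the *Fthl17* genes, were counted separately, here and in the motif counts below. The median ratio of observed to expected CG was 0.22, 0.39, 0.61 and 0.59 in that order, beside 0.71 over all genes tested. Promoters with fewer than 5 CG were not confined to rising genes. They made up 34.7% of 331 promoters of all genes higher in the second step and 23.8% of 130 of all lower ones. Among genes that progressed downward it was 33.3% of 12. The genes that progressed upward were also dimmer, with a median level of -1.91 in fl-/Y+Tx beside -0.04 for all genes and 0.08 for those that held, and whether dim genes differ in CG at large was not tested.

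The next 4 stretches, each the 250 bases before the start, read 5′ to 3′ on the gene's strand with every CG in capitals, are shown for the contrast between CG-poor promoters of rising genes and the promoter of a gene that fell late. They were chosen after the values were seen.
*S100g* (late rise; GRCm38.p6 chrX:162964600-162964849, minus strand; 2 CG): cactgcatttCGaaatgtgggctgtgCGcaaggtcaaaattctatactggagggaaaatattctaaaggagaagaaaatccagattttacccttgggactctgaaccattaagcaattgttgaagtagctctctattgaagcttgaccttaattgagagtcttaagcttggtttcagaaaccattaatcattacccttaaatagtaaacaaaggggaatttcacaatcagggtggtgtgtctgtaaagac
*Ugt2b34* (late rise; chr5:86906938-86907187, minus strand; 0 CG): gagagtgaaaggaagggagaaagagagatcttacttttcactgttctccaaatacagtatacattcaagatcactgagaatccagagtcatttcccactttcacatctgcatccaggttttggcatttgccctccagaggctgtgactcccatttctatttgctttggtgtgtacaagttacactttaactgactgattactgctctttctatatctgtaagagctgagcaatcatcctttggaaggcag
*Pramel14* (progressed; chr4:143994370-143994619, minus strand; 2 CG): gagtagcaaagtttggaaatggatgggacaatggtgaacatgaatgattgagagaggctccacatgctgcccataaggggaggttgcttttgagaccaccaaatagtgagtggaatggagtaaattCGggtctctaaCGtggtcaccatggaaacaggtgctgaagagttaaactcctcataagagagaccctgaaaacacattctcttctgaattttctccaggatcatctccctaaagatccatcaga
*Mras* (late fall; chr9:99436713-99436962, minus strand; 24 CG): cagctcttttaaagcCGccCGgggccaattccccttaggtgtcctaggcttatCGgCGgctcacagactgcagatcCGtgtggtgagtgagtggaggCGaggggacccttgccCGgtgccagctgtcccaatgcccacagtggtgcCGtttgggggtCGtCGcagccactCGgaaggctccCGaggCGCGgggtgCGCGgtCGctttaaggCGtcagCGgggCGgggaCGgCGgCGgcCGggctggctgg

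**Figure D5:**
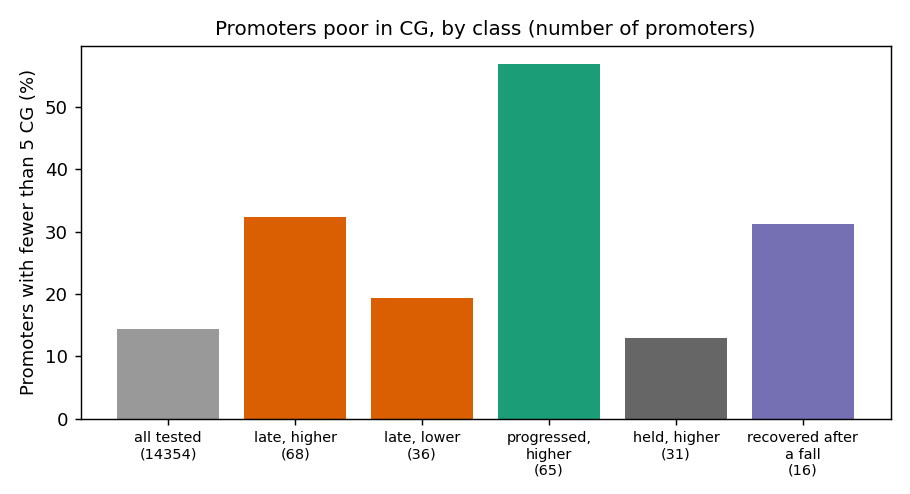
Share of promoters with fewer than 5 CG in 300 bases (y axis, percent) for all genes tested and for 5 classes, with the number of promoters under each bar. The bar of the upward progressing genes reaches 56.9% and that of all genes 14.4%. Genes that progressed downward, recovered after a rise or held a fall are not drawn.

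The probes of the 3 *Fthl17* genes, near-identical copies whose levels moved together in both steps, may take up each other's RNA. These 3 genes have related promoters. A run of 83 bases, in capitals below, is identical in all 3, and of 32851 promoters in the table it is found in these 3 only. It ends 76, 1 and 68 bases before the annotated start, at a different distance in each.
*Fthl17d* (GRCm38.p6 chrX:8986673-8986922, minus strand): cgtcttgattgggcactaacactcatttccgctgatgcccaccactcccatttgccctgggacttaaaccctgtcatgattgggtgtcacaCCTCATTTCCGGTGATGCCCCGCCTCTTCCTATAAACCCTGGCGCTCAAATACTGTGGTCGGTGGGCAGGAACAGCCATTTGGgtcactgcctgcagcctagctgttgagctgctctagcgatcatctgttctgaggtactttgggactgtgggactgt
*Fthl17e* (chrX:9033236-9033485, plus strand): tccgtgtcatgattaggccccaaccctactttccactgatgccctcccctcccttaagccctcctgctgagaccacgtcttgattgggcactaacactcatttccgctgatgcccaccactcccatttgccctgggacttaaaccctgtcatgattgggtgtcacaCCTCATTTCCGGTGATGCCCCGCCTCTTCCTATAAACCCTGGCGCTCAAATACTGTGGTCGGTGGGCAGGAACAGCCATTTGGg
*Fthl17f* (chrX:9062840-9063089, plus strand): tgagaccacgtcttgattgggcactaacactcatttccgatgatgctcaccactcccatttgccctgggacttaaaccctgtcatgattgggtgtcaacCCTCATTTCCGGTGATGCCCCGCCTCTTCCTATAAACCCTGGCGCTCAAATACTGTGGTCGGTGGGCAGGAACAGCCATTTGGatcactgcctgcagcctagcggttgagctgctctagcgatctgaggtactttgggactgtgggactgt

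Of 4 motifs searched on both strands in the 300 bases, AGATAA or TGATAA, the letters that GATA factors bind, were in 30.8% of the promoters of upward progressing genes, 11.8% of late risers, 5.6% of late falls and 11.3% of all genes tested. TCAAGGTCA, a site shared by Esrrb and Nr5a2, was in 1.54%, 0%, 0% and 0.31%, which for so few promoters is at most 1. CACGTG, the E-box, was in 4.6%, 8.8%, 11.1% and 9.6%, and AACAAAG, of Sox and Tcf factors, in 6.2%, 8.8%, 5.6% and 4.1%. A promoter with either of the GATA letters, or both, was counted once. None of the other motifs contains them, but neighbouring matches can share letters at their ends. The median GC share was 50.0% for upward progressing genes and 59.7% for all genes tested, and over the 32851 promoters of the table, tested or not, AGATAA or TGATAA stood in 18.6%. In the smaller classes these letters stood in 25% of 12 promoters (progressed downward), 18.8% of 16 (recovered after a fall) and 0% of 4 (recovered after a rise). Among genes that held, it was 9.7% of 31 (rise) and 14.3% of 14 (fall).

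Fibroblast markers were brighter at each step. The summed linear level of 12 fibroblast markers was 262 to 277 in fl-/Y-Tx, 320 to 342 in fl-/Y+Tx and 381 to 432 in KO/Y cells, all 12 were above background on all 9 arrays, none was called and 8 were higher in the second step by adjusted p alone (12.1% of all genes). The median log2 difference of 35 fibroblast genes was 0.37 in the first step and 0.24 in the second. *Col4a1*, *Col4a2* and *Lama1* can come from fibroblasts as well as endoderm, and the part of feeder cells in these results was not tested. The summed level of 12 endoderm markers was 2.20 to 2.50 in fl-/Y-Tx, 2.97 to 3.43 in fl-/Y+Tx and 6.66 to 8.65 in KO/Y cells, without overlap. Of these *Afp* and *Ttr* were too dim to be tested, and 8 of the others were called higher in the second step (2.37% of all genes). All 8 are in the endoderm lists above, and *Sox7* and *Sox17* passed the filter on dim probes through KO/Y alone. The 7 trophectoderm markers summed to 0.797 to 0.849, 1.05 to 1.19 and 2.23 to 2.52. Linear sums give most weight to the brightest genes, and *Hand1*, which rose 7.08-fold in the second step, was the brightest of the 7 in KO/Y cells. Of the 7, only *Hand1* and *Krt7* were called, and 2 were above background on no array, so the sum does not show a rise of the whole set. Of 5 mesoderm markers, 3 were above background on no array, and of 5 neuroectoderm markers *Pax6* was lower by at least 1.74-fold. In the neuroectoderm list, 4 of 17 genes fell in the second step, *Pax6*, *Hes5*, *Hes3* and *En2*, and none rose. Over all genes tested 1.05% fell and 2.37% rose, and none of these 4 calls held with normexp.

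Most genes of the other programmes were not called. By adjusted p alone 14.1% of all genes tested were lower in the second step and 12.1% higher, and the counts by adjusted p below are to be read beside these shares. The counts of called genes are to be read beside 1.05% of all genes lower and 2.37% higher. None of 35 mitosis genes was called in the second step, with 17 lower and 1 higher by adjusted p alone (median log2 difference -0.21, first step -0.20), and 1 of 39 DNA replication genes fell, with 14 lower and 5 higher by adjusted p. None of 31 p53 targets was called, with 12 higher and 1 lower by adjusted p. None of 36 chromatin repressor genes was called, with 16 lower and none higher, *Trim28* by -0.27 (adjusted p = 0.00993). Of 33 glycolysis genes, 1 rose (*Hkdc1*) and 1 fell (*Egln3*), with 19 lower by adjusted p. Of 44 imprinted genes 3 rose, *Mest*, *Nnat* and *Plagl1*, but the probes of *Plagl1* ranged from -0.13 to 1.32 and their mean was not called (0.59). *Nnat* was above background in KO/Y cells only, at least 1.56-fold higher, and its call was lost with normexp, with the floor and with the floored variance. Of 32 interferon genes 2 rose, *Cxcl10*, a chemokine (4.99-fold), and *Isg20*, a nuclease (2.51-fold). None of 8 steroidogenic genes, the classical targets of *Nr0b1*, was called, and the other 10 of that list did not pass the filter on dim probes.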

How the data were processed

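Transcripts of male mouse ES cells were read with 9 1-colour Agilent SurePrint G3 8x60K arrays, 3 in each of 3 groups. The deposited scanner files hold signal intensity values that the authors extracted with Agilent Feature Extraction 10.7.3.1, which subtracts background, and probe positions on mm9 per the file headers. The authors' series table, with 1 linear value per group, served only to check the group means (r = 1 on the log2 scale) and the differences of named genes. The authors analysed their arrays with the NIA Array Analysis software and applied limits of fold and false discovery rate. No other setting of that software was found in the sources used here.

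Here log2(processed signal) minus each array's 75th percentile was taken, control and outlier spots were left out, and a probe stayed in (31187 of 55681) if all 3 arrays of some group detected it above background. A gene was read from its brightest probe, and 14322 of the 22440 genes were named through a RefSeq accession, the others by the file's name. limma 3.58.1 in R 4.3.3 (lmFit, eBayes) fitted all 9 arrays in 1 model. Contrasts gave each step and their difference, adjusted over all genes by Benjamini-Hochberg, and the main limits were 2-fold and 0.05. Classes used 95% intervals. "At least" folds set the brighter group's mean against the higher of the probe's own signal and the faintest signal called well above background on the dim arrays. The number of arrays limits the precision, and the median SE of a difference was 0.098. The scripts were tested on simulated data. Named were *Nr0b1*, genes the study names, up to 12 genes per class with the largest second step and separate arrays, and, for each list, up to 4 called members that moved most. Other genes given with values, such as *Krt8*, *Cubn*, *Col4a1*, *Tfap2c*, *Spry4* and *Stra8*, are list members, markers or class members chosen after their values were seen. The members and lists were chosen with earlier results of these data known. Alternatives covered background correction, normalization, dim-probe filters, slides, variance, limits, probes and left-out arrays.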

Additional observations from a re-analysis of the deposited data

How the results depend on the processing

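The 532 higher and 235 lower genes became 195 and 61 with normexp, 229 and 149 with only probes above background on all 9 arrays, 144 and 43 when tested against a fold of 2, and 2710 and 3170 without a fold limit. The 151 late genes became 99 with the slide as a block, 81 with the larger of a gene's own and neighbouring variance, 40 with a tighter limit for an unchanged first step and 399 with a limit of 2-fold. The 167 progressing genes became 61 with normexp, 66 with only probes above background on all arrays and 104 with a floor on low signals. The 27 recovering genes became 5 with normexp, 48 without a filter on dim probes, 14 with only probes above background on all arrays, 16 with the floor, 17 with the larger variance and 45 without fl-/Y+Tx array 1. With each array left out in turn the counts were 488 to 554 higher, 229 to 259 lower, 124 to 165 late, 154 to 169 progressing and 27 to 45 recovering. The cause of these shifts was not tested beyond the construction of each setting. Of the named genes called in the second step, 2358 of 2475 combinations of gene and setting were unchanged, and 117 kept the direction and lost the call. A setting that filtered a gene out was not counted for it, as with only probes above background on all 9 arrays. The authors' series table has no calls, so unchanged there means only a difference close to the main one. *Zfp352*, not called, changed sign from 0.05 to -0.10 without fl-/Y+Tx array 3 and to -0.13 without KO/Y array 2, and ranged up to 0.16 (without KO/Y array 3). The settings for the X chromosome and for the gene lists within 1 slide were chosen after seeing the data. No paired analysis was possible because the arrays carry no replicate number that is shared between groups. Dim probes limit the second step, since 10 late, 9 progressing and 8 recovering upward genes were above background on no fl-/Y+Tx array.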

Other observations

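Genes of the Nodal pathway were called in both directions. Of 18 tested, 2 were lower in the first step, and in the second 2 rose and 1 fell (median log2 difference -0.08, first step -0.25). Over all genes tested 0.758% were lower in the first step, and 2.37% rose and 1.05% fell in the second. The 2 Lefty genes, secreted inhibitors of Nodal, fell together in the first step and then parted. *Lefty1* was 3.55, 3.60 and 3.56 in fl-/Y-Tx, 1.91, 1.77 and 1.88 in fl-/Y+Tx and 1.09, 1.18 and 1.24 in KO/Y cells (second step -0.69, SE 0.07, limma adjusted p = 0.000189). *Lefty2* was 3.08, 3.12 and 3.12, then 1.74, 1.65 and 1.74, then 2.14, 2.28 and 2.26 (second step 0.52, SE 0.06, limma adjusted p = 0.000599). Neither second step reached 2-fold, the groups of each gene did not overlap, and *Lefty2* was singled out with *Lefty1* after their values were seen. *Cer1*, another secreted inhibitor, was above background in KO/Y cells only and at least 2.22-fold higher. *Skil*, a repressor of Smad factors, fell 2.17-fold. Both calls were lost with normexp.

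*Sp5*, a target of Wnt signalling, fell in the first step (log2 -2.85) and was a further 0.58 lower in the second (adjusted p = 0.0162), short of 2-fold. *Zic5*, a zinc-finger gene of the primed epiblast, fell 2.31-fold in the second step, from 0.91, 0.87 and 0.96 to -0.36, -0.27 and -0.26. *Tfeb*, a regulator of lysosome genes, fell 2.24-fold, and the call was lost without KO/Y array 1 (log2 -0.96). None of 32 cholesterol genes was called, with 10 lower and none higher by limma's adjusted p alone, by which 14.1% of all genes tested were lower.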
